A study of Homo sapiens with 6 samples.

Results

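The genes described here are the 4 ROBO receptors, the 3 SLIT ligands and the 3 SRGAP effectors of Slit-Robo signalling, 10 genes of the 58243 in the count table, chosen by gene symbol. They were picked with the change of these genes between the study's groups already known, ROBO1 above all, so every value of that comparison is given for them as a description, with no p-value. Slits are secreted proteins that bind Robo receptors on the cell surface. The pathway is best known for steering axons away from the midline, and it also acts on migration and adhesion of other cells, tumour cells included. Robo receptors have no enzyme activity of their own and act through proteins that bind their cytoplasmic tail, among them the srGAPs, which bend membranes.

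The cells were labelled Hep3B, a human hepatocellular carcinoma line, and were cultured in DMEM with fetal bovine serum. Each group had 3 RNA sequencing libraries of total RNA: one received si-SNHG17-1, an siRNA named for the long noncoding transcript SNHG17, and the other si-NC, taken here as the control. The comparison asks which genes change when SNHG17 is lowered. Only 1 siRNA against SNHG17 is in these data, its sequence is not given in the sources used here, and the labels do not call the replicates separate cultures. The p-values therefore cover no more than library-to-library spread, which may be technical.

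Total counts ranged from 30207055 to 42271168 per library, and 3 counts corresponded to between 0.0712 and 0.0977 CPM (the usual library-scaled count, here with edgeR's TMM factors), a floor that covers counting error only. SNHG17 was present at 22.4, 22.8 and 23.9 CPM with si-NC against 8.03, 8.02 and 8.27 CPM with si-SNHG17-1 (log2 fold change −1.51 ± 0.12 SE, edgeR's quasi-likelihood test with Benjamini-Hochberg adjustment, adjusted p = 0.00101). Of 12 hepatocyte and liver cancer markers, 11 stayed under 1 CPM in every library, and TTR and GPC3 had 0 counts in all, so the cells are called here by their label only. Genes are described as called where that adjusted p, taken over all 18679 genes tested, was below 0.05. Of these, 5.25% were called higher and 5.21% lower, 10.5% in all. Without each library in turn, 313 to 694 genes were called higher and 264 to 705 lower, in place of 980 and 974. The lowest numbers came without si-SNHG17-1 replicate 1, and both stayed within 1.5 times of the full fit only without si-NC replicate 1 (694 and 705). The others were 616 and 578 without si-NC replicate 2, 527 and 531 without si-NC replicate 3, 402 and 366 without si-SNHG17-1 replicate 2, and 399 and 332 without si-SNHG17-1 replicate 3.

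The sequences bearing on these genes lie in 3′ untranslated regions (UTRs), the part of an mRNA where microRNAs and the seed of a small RNA bind. Among 13638 tested genes with an annotated 3′ UTR (the longest per gene in GENCODE release 29, build GRCh38), the 8-base word with the largest gain in share from all tested genes to the genes called lower was TTCAATCA. It was found from this same comparison and searched on the strand of the mRNA only. Its share was 2.84% over all tested genes, 8.30% over the 880 called lower and 1.93% over the 880 called higher, whose 3′ UTRs had median lengths of 1311, 1150 and 1718.5 bases. ROBO1 holds it in 2 places, shown here because ROBO1 was the member with the largest change, 5′ to 3′ on the minus strand of chromosome 3 with the word in capitals, and the starts of the copies are 121 bases apart.
ROBO1, chr3:78598261-78598290: tttggcttcatTTCAATCAttgaagtatat
ROBO1, chr3:78598140-78598169: ttgttctatttTTCAATCAtcaaaaagtaa
The word was found in the 3′ UTR of none of the other 9 members. It was also in none of the 8 annotated SNHG17 transcripts, on either strand, which says only that these letters are not there. Of 4807 tested genes not of the protein-coding type, only 3.08% had the word in a transcript, on the RNA's own strand. Its absence from SNHG17 was thus likely beforehand and says nothing about the siRNA. Matches to a part of the word were not searched.

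A microRNA sits inside the SLIT genes themselves, and ROBO1 is a known target of it. The precursors of miR-218 lie in introns of SLIT2 (chromosome 4) and SLIT3 (chromosome 5) on the same strand as the host, and both give the same mature miR-218-5p, printed here from RefSeq (GRCh38.p14) with the seed, bases 2 to 8, in capitals.
hsa-miR-218-5p: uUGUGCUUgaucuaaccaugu
The complement of this seed, AAGCACA, was found once in the ROBO1 3′ UTR and 2 times in that of ROBO2, the site being in capitals.
ROBO1, chr3:78597925-78597953, minus strand: tttggttttaaAAGCACAatcactaaact
ROBO2, chr3:77646500-77646528, plus strand: tatttggtgatAAGCACAaatctctactc
ROBO2, chr3:77648945-77648973, plus strand: atgtccaatacAAGCACAgcttcattcat
SLIT2 and SRGAP1 also had 2 such matches each, SLIT3 and SRGAP2 had 1 each, and ROBO3, ROBO4, SLIT1 and SRGAP3 had none. Those of SRGAP1 lay in a 3′ UTR of 19549 bases. Such matches are common: 15.3% of the tested 3′ UTRs held the 7 letters, as did 15.1% of those of genes called lower and 18.4% of those of genes called higher. Neither MIR218-1 nor MIR218-2 had a count in any library, and the mature microRNA was not measured in these libraries.

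ROBO1, a transmembrane Slit receptor with immunoglobulin and fibronectin repeats outside the cell, was much lower after si-SNHG17-1. It was counted 8563, 6390 and 6690 times with si-NC against 1538, 1649 and 1259 times with si-SNHG17-1. In CPM these were 227, 153 and 169 against 40.2, 39.1 and 41.0. All 3 si-SNHG17-1 libraries lay far below the lowest si-NC library, and the si-NC libraries were the more scattered ones, with replicate 1 the highest. The mean went from 183 ± 39.1 to 40.1 ± 0.930 CPM (SD, n = 3 each), a log2 fold change of −2.19 ± 0.15 SE, or 4.56-fold lower. Bulk RNA cannot tell less ROBO1 RNA per cell from fewer cells that express it. The gene (ENSG00000169855.19) spans chromosome 3 from 78597240 to 79767815 on the minus strand.

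The size of the ROBO1 change did not rest on 1 library. With each library left out in turn the log2 fold change ran from −2.30 to −2.005, and ROBO1 was called lower in 6 of 6 such fits. Of the 974 genes called lower, 21 fell by as much as ROBO1 or more, ROBO1 included. Among the 422 of them with at least 100 CPM in si-NC it had the second largest fall. That cutoff used only si-NC, the group where ROBO1 was higher, and ROBO1 was picked with its change known. Both ranks are therefore a description. No base of the ROBO1 exons is shared with another annotated gene. No stretch of 75 bases of its transcripts occurs exactly in another annotated gene's transcripts. Shorter or inexact matches were not searched, so how far read assignment affects its counts was not tested.

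The other receptors were close to the limit of these libraries. ROBO2, the receptor most like ROBO1 in domain structure, had 24, 56 and 30 counts with si-NC against 51, 69 and 43 with si-SNHG17-1, or 0.912 ± 0.377 against 1.46 ± 0.16 CPM, and the groups overlapped. Its log2 fold change was 0.67 ± 0.38 SE and it was not called. ROBO3, known as a divergent receptor that lets axons cross the midline, had 37, 12 and 20 counts with si-NC against 27, 4 and 8 with si-SNHG17-1. Replicates 2 and 3 of si-SNHG17-1 lay below every si-NC library and replicate 1 lay among them, so the groups overlapped, and the log2 fold change was −0.73 ± 0.82 SE, with no call.

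ROBO4, known from endothelial cells, had 0, 37 and 30 counts with si-NC against 8, 18 and 8 with si-SNHG17-1. Replicate 1 of si-NC thus stood at 0 while the other two had the highest counts of all, and the log2 fold change was −0.86 ± 1.12 SE, with no call. Low counts in this table need care: for counts of 8 to 48, those divisible by 4 exceeded the neighbouring values in frequency by 1.48 to 1.68 times, so the values may not be plain tallies of reads. Of 8 endothelial markers, KDR and EMCN had 0 counts in all libraries, and the list summed to between 5.45 and 6.02 CPM in si-NC and between 10.4 and 11.4 CPM in si-SNHG17-1. CDH5, an endothelial cadherin, rose from 1.46, 2.47 and 1.16 CPM to 6.8, 5.72 and 5.14 CPM (edgeR adjusted p = 0.0135) but lost the call without si-SNHG17-1 replicate 1 or 2 (0.0630 and 0.0509). PECAM1, an endothelial adhesion molecule, lay the other way, at a mean of 1.37 CPM in si-NC and 0.592 CPM in si-SNHG17-1 with no overlap, and was not called (log2 fold change −1.20 ± 0.47 SE). CDH5 was thus the main part of the higher sum. The 8 neuronal markers summed to 16.4 to 17.5 CPM in si-NC and 15.4 to 17.3 CPM in si-SNHG17-1, with ELAVL4, STMN2 and NEFL at 0 counts in all. The part of these cell types in the receptor values was not tested.

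**Figure D1:**
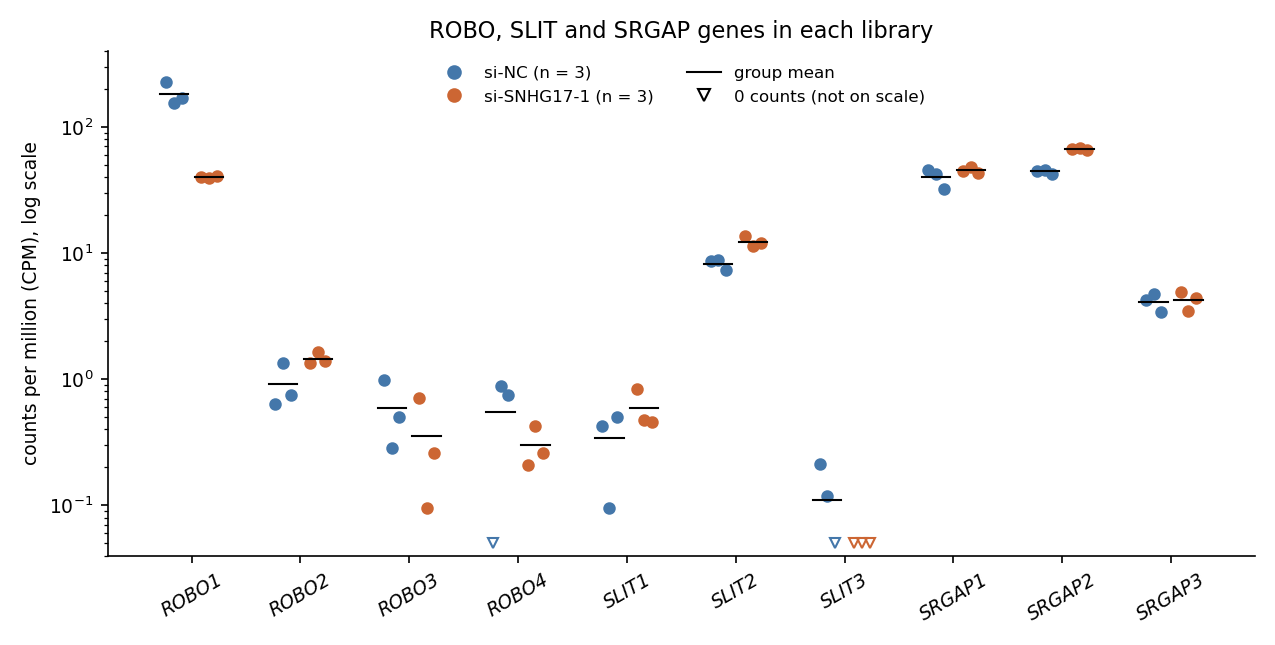
CPM of each of the 10 genes (horizontal axis) in each library, on a log scale, with a point per library, a line at the group mean and an open triangle where a library had 0 counts. ROBO1 is the only gene with a clear drop, from 153 CPM or more in si-NC to 41.0 CPM or less in si-SNHG17-1, SLIT2 and SRGAP2 sit higher in all 3 si-SNHG17-1 libraries, and the genes under 2 CPM scatter widely.

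Among the ligands, only SLIT2 had more than 1 CPM. SLIT2 (ENSG00000145147.19, chromosome 4 from 20253260 to 20620561, plus strand), a secreted protein with leucine-rich repeats that bind Robo, had 323, 365 and 293 counts with si-NC against 520, 479 and 367 with si-SNHG17-1. In CPM it was at 8.57, 8.74 and 7.39 against 13.6, 11.4 and 11.9, so the groups did not overlap and moved opposite to ROBO1. The log2 fold change was 0.58 ± 0.15 SE. The gene was called higher only by a narrow margin: with any of the 6 libraries left out the call was lost, while the log2 fold change stayed between 0.51 and 0.64.

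SLIT1 had 16, 4 and 20 counts with si-NC against 32, 20 and 14 with si-SNHG17-1, and the groups overlapped (log2 fold change 0.79 ± 0.69 SE, not called). SLIT3 had 8, 5 and 0 counts in si-NC and 0 in all 3 si-SNHG17-1 libraries, which allows up to 0.0977 CPM in the shallowest of them. SLIT3 was the only member below the filter on low counts, and no change can be given for it at this depth.

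Of the effectors, SRGAP2 was higher and SRGAP1 and SRGAP3 were not called. SRGAP2, which binds ROBO1 through its SH3 domain and induces membrane protrusions through its F-BAR domain, had 45.0, 45.8 and 42.0 CPM with si-NC against 66.9, 67.6 and 65.0 CPM with si-SNHG17-1. The replicates were tight and the groups far apart relative to their spread, with means of 44.3 ± 2.01 and 66.5 ± 1.35 CPM (SD, n = 3 each). The log2 fold change was 0.59 ± 0.08 SE, and with each library left out it ran from 0.55 to 0.62 and kept the call in 6 of 6 fits. The gene (ENSG00000266028.7) spans chromosome 1 from 206203345 to 206464443 on the plus strand, and 583 of its exon bases overlap FAM72A on the opposite strand, which had a log2 fold change of 0.53 ± 0.17 SE (edgeR adjusted p = 0.0876).

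SRGAP2 has partial copies that arose in the human lineage, SRGAP2B, SRGAP2C and SRGAP2D, of which SRGAP2C is known to encode a truncated protein that binds and inhibits SRGAP2. In all 3 copies, as in SRGAP2, the lowest si-SNHG17-1 library lay above the highest si-NC library. SRGAP2C had 30.4, 40.1 and 29.96 CPM with si-NC against 65.3, 58.6 and 72.5 CPM with si-SNHG17-1, with no overlap (log2 fold change 0.97 ± 0.15 SE, edgeR adjusted p = 0.00873). SRGAP2B went from 24.8 ± 5.77 to 45.3 ± 5.30 CPM (0.87 ± 0.18 SE, edgeR adjusted p = 0.0259), and with a library left out it kept its call only without si-NC replicate 2. SRGAP2D had a log2 fold change of 0.89 ± 0.25 SE and was not called (edgeR adjusted p = 0.0665), while DESeq2 and limma-voom called it higher (adjusted p = 0.0148 and 0.0465). Without si-NC replicate 1 it was called, at a log2 fold change of 1.16 (edgeR adjusted p = 0.0328).

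These genes cannot be read apart cleanly. Of all stretches of 75 bases in annotated SRGAP2 transcripts, 20.6% also occur in a transcript of a copy, against 73.8% for SRGAP2B, 69.1% for SRGAP2C and 96.8% for SRGAP2D, and how the authors assigned such reads is not given in the sources used here. With stretches of 150 bases the shares were 16.1% for SRGAP2, 59.3% for SRGAP2B, 53.2% for SRGAP2C and 81.4% for SRGAP2D. When the counts of all 4 genes were summed before the fit, the log2 fold change was 0.79 ± 0.10 SE.

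SRGAP1, which binds Robo and inactivates CDC42 downstream of Slit, had 45.4, 42.2 and 32.0 CPM with si-NC against 44.5, 47.7 and 42.9 CPM with si-SNHG17-1. The groups overlapped, si-NC replicate 3 being the low library, and the log2 fold change was 0.18 ± 0.14 SE. SRGAP3, also known as WRP, a regulator of RAC1, had 4.25, 4.69 and 3.43 CPM against 4.89, 3.49 and 4.4 CPM (0.05 ± 0.21 SE). Its sign turned to −0.072 without si-NC replicate 3 and to −0.060 without si-SNHG17-1 replicate 1, so no direction can be given. SRGAP1 shares 462 exon bases with the antisense gene AC025576.1, and SRGAP3 shares 212 with THUMPD3, which was far more abundant (1152 to 1501 counts) and lies on the opposite strand, and 373 with AC026191.1. Whether counting used strand is not given in the sources used here.

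In all, 9 of the 10 members could be tested. ROBO1 was called lower and SLIT2 and SRGAP2 higher, and the other 6 were not called. The same 3 genes were those whose groups did not overlap in CPM. Of all tested genes 10.5% were called and 33.7% had groups that did not overlap, but since the members were chosen with this comparison in view nothing is read from that contrast of shares. Without any 1 of the 6 libraries the number called higher was 1 in place of 2.

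**Figure D2:**
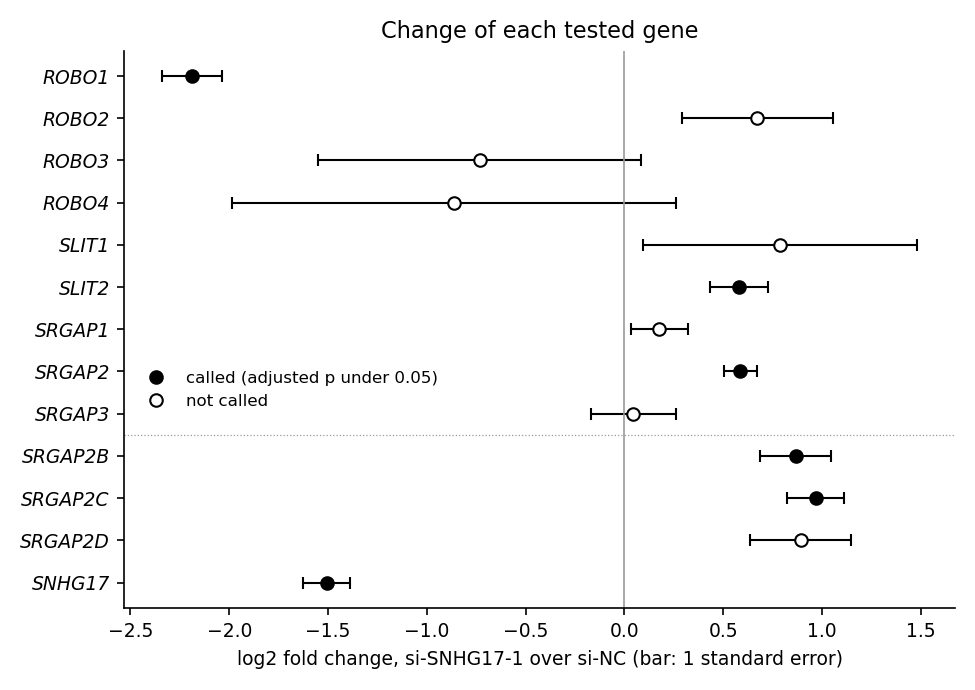
Log2 fold change of si-SNHG17-1 over si-NC with 1 standard error for the 9 tested members (above the dotted line) and for the SRGAP2 copies and SNHG17 (below it), filled where the gene was called in the fit across all genes. ROBO1 at −2.19 lies further from 0 than SNHG17 at −1.51, SLIT2, SRGAP2 and the copies lie between 0.58 and 0.97, and the bars of the low-count genes are wide.

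To compare levels between genes, counts were also divided by exon length, giving RPKM (CPM per kilobase of the merged exons in GENCODE 29). In si-NC the order was ROBO1 at 16.8 ± 3.60 RPKM, SRGAP2 at 2.82 ± 0.128, SRGAP1 at 1.5 ± 0.263, SLIT2 at 0.848 ± 0.0759 and SRGAP3 at 0.218 ± 0.0339 (SD, n = 3 each). These 5 did not overlap with their neighbours in the order over the 3 libraries. ROBO3, ROBO4, ROBO2, SLIT1 and SLIT3 followed, all with means under 0.1 RPKM and each overlapping the next. In si-SNHG17-1 the first ranks were exchanged: SRGAP2 came first at 4.24 ± 0.0863 RPKM and ROBO1 second at 3.69 ± 0.0855, again without overlap. The spread over 3 libraries does not cover reads shared with the SRGAP2 copies or the choice of merged exon lengths, so this exchange is uncertain. SRGAP1, SLIT2 and SRGAP3 kept ranks 3 to 5, at 1.69, 1.27 and 0.225 RPKM. ROBO2, SLIT1, ROBO3 and ROBO4 came next, each overlapping its neighbour, and SLIT3 was at 0.

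**Figure D3:**
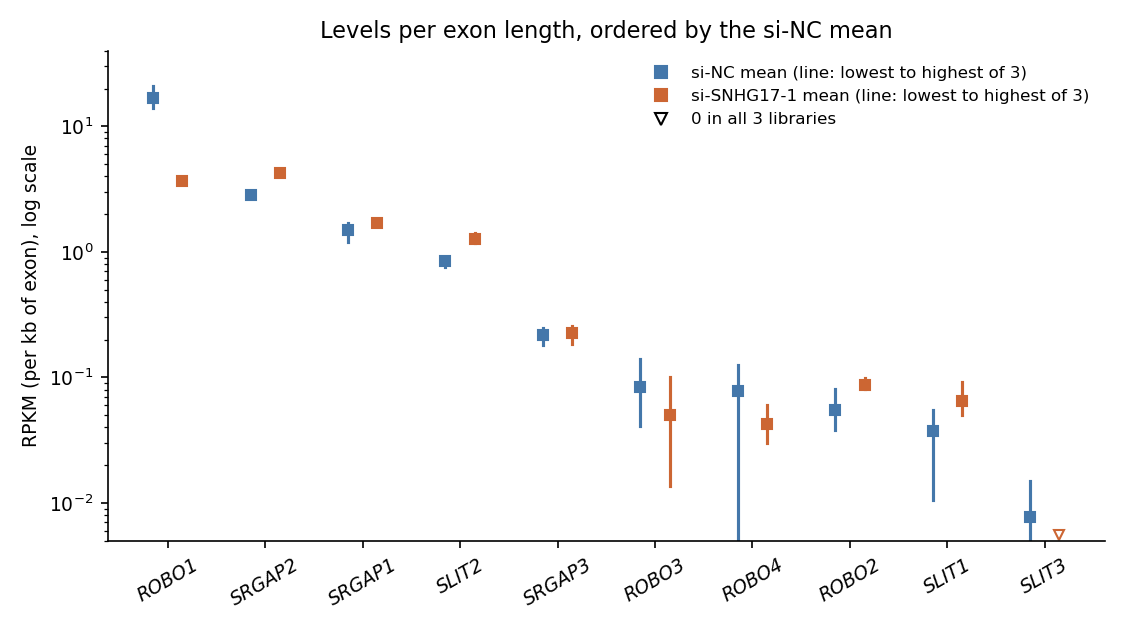
RPKM per kilobase of exon on a log scale for the 10 genes, ordered by the si-NC mean, with squares at group means and lines from the lowest to the highest of 3 libraries (lines that reach the lower edge include a library at 0). ROBO1 falls from 16.8 to 3.69 RPKM and passes below SRGAP2, which goes from 2.82 to 4.24 RPKM. The SRGAP2 values carry the uncertainty from its copies.

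Within the family this changed the proportions. ROBO1 made up 98.7% ± 0.449 of the summed ROBO RPKM in si-NC and 95.3% ± 0.681 in si-SNHG17-1, so it stayed the main receptor in both groups, and the summed receptor level went from 17.0 ± 3.56 to 3.87 ± 0.0856 RPKM. ROBO2 went from 0.344% ± 0.196 to 2.26% ± 0.299 of that sum, which itself fell. The level of ROBO2 was 0.0547 RPKM in si-NC and 0.0875 RPKM in si-SNHG17-1, with overlapping groups and no call. SLIT2 was 94.9% ± 2.66 of the summed SLIT RPKM in si-NC and 95.2% ± 1.21 in si-SNHG17-1. The ratio of ROBO1 to SLIT2 RPKM was 23.7, 15.6 and 20.4 with si-NC against 2.64, 3.07 and 3.06 with si-SNHG17-1, with no overlap. SRGAP2 made up 59.8, 61.5 and 66.0% of the summed SRGAP RPKM with si-NC against 68.9, 68.6 and 69.2% with si-SNHG17-1, a difference that carries the uncertainty from its copies.

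The 3′ UTR word described above was then followed over its copies. Of the 13250 tested genes without it, 6.09% were called lower and 6.51% higher, with a median log2 fold change of −0.00. Of the 364 genes with 1 copy, 18.7% were called lower and 4.67% higher, with a median of −0.14. Of the 24 genes with 2 or more copies, ROBO1 among them, 5 (20.8%) were called lower and 0 higher. The median of the 24 was −0.24, and 17 of them had a negative log2 fold change. The 5 called lower were TSPAN6, ROBO1, DDIAS, TPP1 and FZD4, named after their values were seen. ROBO1 had the second lowest log2 fold change of the 24, after TSPAN6 at −3.10. Since the word was picked from this comparison, these shares describe it and test nothing. For the miR-218-5p site, 6.47, 6.32 and 6.63% of genes with 0, 1 and 2 or more matches were called lower and 6.21, 7.55 and 8.75% were called higher. Their median log2 fold changes were −0.01, 0.02 and 0.09, and these too are given as a description. Genes called higher had longer 3′ UTRs (median 1718.5 bases, against 1150 for those called lower). The part of 3′ UTR length in these shares and medians was not tested.

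**Figure D4:**
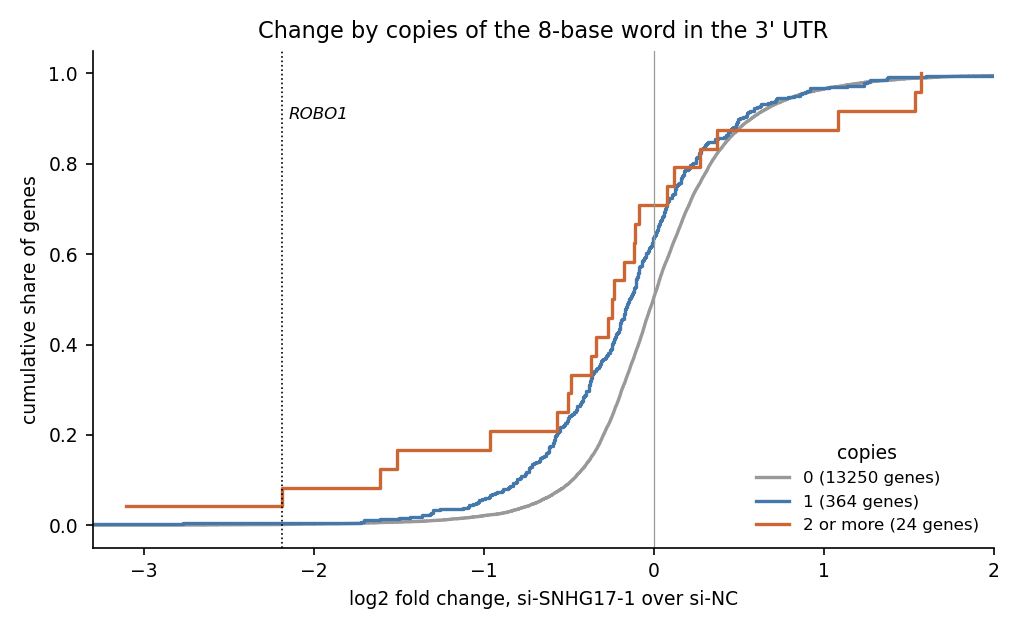
Cumulative share of tested genes (vertical axis) by log2 fold change, for genes with 0, 1 and 2 or more copies of the 8-base word in the longest annotated 3′ UTR, cut at the edges of the axis, with a dotted line at ROBO1. At the middle of the vertical axis the curves for 1 copy (364 genes) and for 2 or more (24 genes) lie to the left of the curve for none, with medians of −0.14 and −0.24 against −0.00.

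The other genes of the pathway were taken from 5 lists with 106 genes, of which 95 could be tested. Of the 95 genes 18 rose and 6 fell, 25.3% together, against 10.5% over all genes tested. The median log2 fold change was 0.14, against −0.00. The lists were chosen with earlier results of these data known. Nothing is therefore read from this contrast of shares, from the one at 10 CPM below or from those of single lists. Adjusted p-values of list genes are given as a description too. The 18 include SRGAP2B and SRGAP2C, whose counts cannot be read apart from those of SRGAP2 and of each other. They belong to the list of 15 genes, 4 higher and 1 lower, that is not described further, and the other 4 lists are described one by one. The lists hold abundant genes: of those with a mean of 10 CPM or more, 27.9% of 86 list genes were called, against 15.5% of 10657 tested genes (7.38% higher and 8.07% lower). The numbers fell with fewer libraries, to 10 and 3 without si-NC replicate 3, 7 and 3 without si-SNHG17-1 replicate 1, 9 and 3 without si-SNHG17-1 replicate 2, and 12 and 2 without si-SNHG17-1 replicate 3.

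Heparan sulfate helps Slit bind Robo. The list of co-receptors and heparan sulfate enzymes had 5 rises and 1 fall among 22 tested genes of 25. Its median log2 fold change was 0.29, and 27.3% of its tested genes were called, against 10.5% over all genes tested. The list also holds genes of other kinds, with FLRT3 and PLXNA1 among the rises. SDC4, a syndecan that carries heparan sulfate at the cell surface, rose from 119 ± 4.03 to 217 ± 5.26 CPM (0.86 ± 0.07 SE on the log2 scale, edgeR adjusted p = 0.00100). EXTL3, a glycosyltransferase of heparan sulfate synthesis, rose from 43.2 to 73.1 CPM (0.76 ± 0.11 SE). EVA1C, a Slit-binding membrane protein, fell from 60.1 ± 0.907 to 35.6 ± 5.16 CPM (−0.75 ± 0.12 SE, edgeR adjusted p = 0.0105). These 3 calls held with each library left out.

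Netrin and chemokine guidance genes, whose signals interact with those of Robo, were tested for 7 of 14. DCC and CXCL12 were among the 7 below the filter on low counts. Of those tested, 3 were called, all higher (42.9%, against 10.5% over all genes tested). The median of the list was 0.18 on the log2 scale. NTN3 and NTN4, of the netrin family, rose from 9.27 to 20.4 CPM (1.14 ± 0.17 SE on the log2 scale) and from 60.2 to 113 CPM (0.90 ± 0.16 SE). The call of NTN4 was lost without any of the si-SNHG17-1 replicates.

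Cytoskeletal and kinase effectors had 3 higher and 1 lower of 31 tested, with a median log2 fold change of 0.15. This was 12.9% called, the lowest share of the lists, against 10.5% over all genes tested. RAC1, a small GTPase that drives lamellipodia, rose from 183 ± 7.57 to 308 ± 6.5 CPM (0.75 ± 0.07 SE, edgeR adjusted p = 0.00152). LIMK1, the kinase that inactivates cofilin, rose from 49.9 to 116 CPM (1.21 ± 0.16 SE), and both calls held with each library left out. ENAH, the actin regulator that binds the Robo tail, fell from 342 ± 40.4 to 267 ± 6.67 CPM (−0.36 ± 0.09 SE, edgeR adjusted p = 0.0493). This call was lost with any library left out, with either other scaling, with either other filter and with a block by replicate number. It held in DESeq2 and limma-voom.

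Genes for cleavage, trafficking and turnover of Robo had 3 rises and 3 falls among 20, with a median of 0.03. This was 30% called, against 10.5% over all genes tested. NCSTN, a subunit of gamma-secretase, rose from 118 to 180 CPM (0.62 ± 0.09 SE, edgeR adjusted p = 0.00834), and ADAM17, a membrane sheddase, fell from 89.9 ± 0.873 to 56.9 ± 3.34 CPM (−0.66 ± 0.08 SE, edgeR adjusted p = 0.00429). Both calls held with each library left out. PRKCA, protein kinase C alpha, had a log2 fold change of −0.38 ± 0.07 SE and was called lower (edgeR adjusted p = 0.0220). This call was lost without any of the si-SNHG17-1 replicates.

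Among markers of fibroblasts and stellate cells, which also express SLIT and ROBO genes, 2 were called higher and 0 lower. The 8 markers summed to 197 to 218 CPM in si-NC and to 263 to 275 CPM in si-SNHG17-1, with COL1A1 and COL3A1 called higher (log2 fold changes 0.36 and 0.52) and COL1A2 at 0 counts in all libraries. The sum was mainly COL1A1 and COL3A1, which had mean levels of 83.6 and 64.1 CPM in si-NC and 107 and 91.7 CPM in si-SNHG17-1. COL1A1 lost the call with any library left out and COL3A1 without any of the si-SNHG17-1 replicates. The other 5 tested markers were not called, with log2 fold changes of 0.86 for DCN, 0.30 for LUM, 0.23 for ACTA2, −0.28 for PDGFRB and −0.51 for DES. Their part in the pathway results was not tested.

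The genes whose pattern over the 6 libraries was most like that of ROBO1, by Pearson correlation of log2 CPM among tested genes of 10 CPM or more, were CORO2A, SKP2, SLC27A2, JTB and LAMA5, with r from 0.996 to 0.999. The measure looks at shape and not size: CORO2A had a log2 fold change of only −0.16 ± 0.08 SE, while that of LAMA5 was −0.95 ± 0.06 SE. For SRGAP2 they were DENND5A, WBP11, ATF7, C9orf3 and RTN4RL2 (r from 0.996 to 0.999), and for SRGAP1 they were KLHL26, KIAA0355, SAFB2, SHPRH and SP2 (r from 0.978 to 0.994). How many other genes come close to these values was not counted, and with 6 libraries in 2 groups they are given as a description.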

How the data were processed

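The deposited values are gene-level counts as whole numbers, without normalisation. Alignment used HISAT2 and build GRCh38, per the submitters' processing notes. The counting program, annotation, strand setting and read length were not given in the sources used here. All 37 mitochondrial genes were at 0. The length column equals the gene span, so exon lengths came from GENCODE 29, in which all 10 members had the same gene version. Genes passing filterByExpr (minimum count 10, minimum total 15) were fitted with edgeR 4.0.16 in R 4.3.3 (TMM, quasi-likelihood F test, Benjamini-Hochberg adjustment). The standard error is the absolute log2 fold change over the square root of F. Limma 3.58.1 (voom) and DESeq2 1.42.0 were alternatives. The fit was also run on counts simulated from its own means and dispersions, which does not test whether the deposited counts follow that model. Replicates differed by more than counting error (chi-square over its degrees of freedom from 26.5 to 55.2), so none was treated as a duplicate. The members, lists and tests were chosen with earlier results of these data known. Named are all members, SNHG17, up to 2 called genes per list and direction with the smallest adjusted p, the 5 genes most like ROBO1, SRGAP1 and SRGAP2 in pattern, and genes sharing exons with a member. The copies SRGAP2B and SRGAP2D and marker genes were added after their values were seen. Some list results are not reported here.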

Additional observations from a re-analysis of the deposited data

How the results depend on the processing

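The calls of ROBO1 as lower and SRGAP2 as higher held in every alternative run: scaling by median-of-ratios factors or by totals alone, dropping the filter, a filter of 1 CPM in 3 libraries, DESeq2, limma-voom, a replicate block and each library left out. SLIT2 lost its call without a filter and with the block, which leaves 1 member called higher in each case. With no filter 627 genes were called lower. ROBO4 turned to 0.46 in limma-voom, and SRGAP3 to −0.072 without si-NC replicate 3 and −0.060 without si-SNHG17-1 replicate 1, within a range of −0.072 to 0.18 over the fits that left a library out. The number of genes called ran from 313 to 694 higher and 264 to 705 lower with a library left out. Over the same fits 1 member was called higher, and the pathway lists had 7 to 16 genes higher and 2 to 5 lower. The block by replicate number left 273 genes higher and 259 lower, 8 and 2 of them in the pathway lists. Same-numbered libraries did not deviate together (correlations −0.04 to −0.02), no library correlated best with its own number, and the block was therefore not used. SNHG17 had the same direction and call in all alternatives. Summing SRGAP2 with its copies was chosen after seeing the data. The depth leaves ROBO3, ROBO4, SLIT1 and SLIT3 without a measurable change.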
